A study of Mus musculus with 30 samples.

Results

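Fc receptors are the proteins through which cells sense antibodies. Their genes were followed here in the forebrain and in isolated microglia, the resident macrophages of the brain, of mice that had lost interleukin-34 (IL-34) either through deletion of its gene or through a blocking antibody. The group held the 7 genes Fcgr1, Fcgr2b, Fcgr3, Fcgr4, Fcer1g, Fcgrt and Trim21, taken by symbol from a count table of 51752 genes, and all 7 were found. RNA was sequenced from 30 libraries of 15 mice, 1 library of whole forebrain from one hemisphere and 1 of CD11b-positive cells from the other for each animal, after perfusion with saline.

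The genotype experiment compared 4 Il34 heterozygous mice (Het, 2 males and 2 females), which keep 1 intact copy of the gene and served as controls, with 3 Il34 knockout mice (KO, 1 male and 2 females). The antibody experiment compared 4 wild-type mice given a control antibody against gp120 (anti-gp120, 2 males and 2 females) with 4 wild-type mice given an antibody that blocks IL-34 (anti-IL34, 3 males and 1 female). The knockout allele, strain, ages, antibody dose and schedule, and antibody isotype are not given in the sources used here. Both antibody arms therefore received an immunoglobulin, and no such treatment is recorded for the genotype arms. This difference cannot be told apart from any other difference between the experiments.

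Activating Fc gamma receptors bind the Fc part of IgG. The receptors encoded by Fcgr1 (FcγRI, of high affinity), Fcgr3 (FcγRIII) and Fcgr4 (FcγRIV) signal through the immunoreceptor tyrosine-based activation motif of a shared gamma chain, encoded by Fcer1g, which recruits the kinase Syk and drives phagocytosis. Fcgr2b encodes FcγRIIb, the inhibitory receptor, which recruits the phosphatase SHIP-1 (Inpp5d). Fcgrt encodes the heavy chain of the neonatal Fc receptor, FcRn, which pairs with beta-2-microglobulin (B2m) and protects IgG and albumin from breakdown. Trim21 encodes a cytosolic ubiquitin ligase that binds antibody-coated particles inside cells. IL-34 binds the colony-stimulating factor receptor (Csf1r), on which microglia depend.

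In GRCm38, 4 of the genes lay within 275.7 kb of chromosome 1. In order along the chromosome these were Fcgr2b (170958617 to 170976547, minus strand), Fcgr4 (171018920 to 171029761, plus strand), Fcgr3 (171051174 to 171064935, minus strand) and Fcer1g (171229572 to 171234365, minus strand). Fcgr1 lay alone on chromosome 3 (96282909 to 96293969, minus strand). Fcgrt (45092990 to 45103851) and Trim21 (102557921 to 102565486) lay far apart on the minus strand of chromosome 7. Near-identical sequence limited the separation of one pair. Of the 50-base words in the exons of Fcgr3, 9.58% also occurred in Fcgr2b, so part of the reads of these neighbours may be uncertain. Antisense genes overlapped Fcgr2b (Gm38204) and Fcgrt (Gm45669), and whether reads were counted by strand is not stated. Gm38204 had 6 counts in all libraries against 67729 for Fcgr2b, and Gm45669 had 109 against 44619 for Fcgrt.

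Promoter sequences from RefSeq (GRCm38.p6) are given for Fcgr1, Fcgr4 and Trim21, whose mean log2 fold change after the antibody was at or above 0 in microglia though none passed the test, and for Fcgr3, which was lower in forebrain. For the Fc gamma receptor genes the stretch is the 250 bases before the annotated start, and for Trim21 it is 26 bases after the start. All are written 5′ to 3′ along the gene. Capitals mark letters searched for on both strands: GAAA and GAAA with any 2 bases between them, a simple form of the interferon-stimulated response element (ISRE); TTC and GAA with any 3 bases between them, a simple form of the gamma-activated site (GAS) bound by STAT factors; and GAGGAA, the core bound by the myeloid factor PU.1, which reads TTCCTC on the other strand. In Trim21 the PU.1 letters overlap the first ISRE match.
Fcgr1 (chr3:96293970-96294219, minus strand): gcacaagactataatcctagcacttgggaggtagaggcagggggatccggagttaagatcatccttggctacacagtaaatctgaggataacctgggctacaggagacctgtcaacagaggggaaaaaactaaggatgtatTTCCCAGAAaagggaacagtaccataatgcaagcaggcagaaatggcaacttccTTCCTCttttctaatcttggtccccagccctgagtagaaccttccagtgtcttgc
Fcgr4 (chr1:171018676-171018925, plus strand): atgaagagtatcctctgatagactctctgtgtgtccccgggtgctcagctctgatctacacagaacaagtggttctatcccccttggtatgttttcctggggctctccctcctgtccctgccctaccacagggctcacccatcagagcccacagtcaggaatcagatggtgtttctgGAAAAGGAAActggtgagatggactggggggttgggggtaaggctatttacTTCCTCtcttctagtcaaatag
Fcgr3 (chr1:171059404-171059653, minus strand): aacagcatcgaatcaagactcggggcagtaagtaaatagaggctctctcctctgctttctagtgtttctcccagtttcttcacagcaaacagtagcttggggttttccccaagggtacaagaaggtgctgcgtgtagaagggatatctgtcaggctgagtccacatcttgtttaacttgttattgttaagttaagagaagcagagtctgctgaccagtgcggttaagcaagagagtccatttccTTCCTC
Trim21 (chr7:102565448-102565473, minus strand): aGAGGAAACTGAAAGTGAAAtttgga

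In the whole window of 300 bases, from 250 before the start to 50 after it, Fcgr4 held 1 ISRE match that began 73 bases before the start, and Trim21 held 2 overlapping ones that began 14 and 20 bases after it. Fcgr1 held the GAS letters 109 bases before its start. PU.1 letters were found in Fcgr1 (55 bases before the start), Fcgr4 (22 before), Fcgr3 (6 before) and Trim21 (11 after). The windows of Fcgr2b, Fcer1g and Fcgrt held none of the 3 motifs. Among all 32851 promoter windows, 3.44% held the ISRE letters, 8.3% the GAS letters and 28.3% the PU.1 letters. Fcgr3 had 2 starts in the RefSeq table, and the one further upstream was used. Both lie inside the GENCODE span of the gene given above, downstream of its outermost start. The letters were chosen after the windows had been read, so the matches are a description of these windows.

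The total count per library ran from 15064391 to 75158213. Levels are CPM, in which the counts of each library are scaled to one common total, adjusted by the trimmed mean of M-values (TMM) over the 15 libraries of a tissue. The Il34 transcript was lower in the forebrain of all 3 KO animals (8.75, 6.78 and 7.64 CPM) than in the 4 Het animals (23.4, 19.6, 19.2 and 23.5 CPM), at 35.3% of the Het level (log2 fold change -1.50 ± 0.10 SE, adjusted p = 1.01e-05, edgeR). In the antibody experiment Il34 was at 36.1 ± 3.03 CPM after anti-gp120 and 38.3 ± 2.15 CPM after anti-IL34 (mean ± SD, n = 4 each). Of 8 microglia markers, 7 were lower in KO forebrain, 8 in KO microglia, 7 in anti-IL34 forebrain and 6 in anti-IL34 microglia (edgeR, adjusted p below 0.05), and none was higher. Of all genes tested, 0.615%, 5.22% and 0.525% were lower in the first 3 of these comparisons, and 0.626% were called in either direction in the last. In KO microglia 0 of all genes were called without Het animal 20 or 23 or any 1 KO animal. In anti-IL34 microglia 0 were called without anti-IL34 animal 10 or anti-gp120 animal 7, and 6905 without anti-gp120 animal 15. Their summed level in forebrain was 191 to 217 CPM in Het, 90.1 to 103 in KO, 316 to 376 after anti-gp120 and 142 to 177 after anti-IL34. In microglia libraries the same sum was 7432 to 13340, 2698 to 3106, 9553 to 12280 and 3466 to 5540 CPM. In both tissues the arms of each experiment did not overlap in this sum. In bulk RNA, fewer microglia and less RNA per microglia cannot be told apart. The gene of the bead marker CD11b, Itgam, could not serve as a check, because it had 7 counts over all libraries. Another gene model, Gm49368, covers 55809 of its 55852 bases on the same strand.

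All 7 genes were enriched in isolated microglia over forebrain of the control animals (Het and anti-gp120, 8 animals). This comparison gave the tissue in which each receptor gene is read, and both libraries of an animal entered it as separate samples. Of all genes tested, 40.5% were higher in microglia, with an adjusted p below 0.05 in edgeR's quasi-likelihood F test with Benjamini-Hochberg adjustment over all genes. The Fc gamma receptor genes and the gamma chain rose between 38.2-fold (Fcer1g) and 52.3-fold (Fcgr4), with log2 fold changes of 5.46 ± 0.20 (SE) for Fcgr1, 5.48 ± 0.22 for Fcgr3, 5.71 ± 0.36 for Fcgr4, 5.52 ± 0.19 for Fcgr2b and 5.25 ± 0.17 for Fcer1g. For comparison, 23 of 23 listed genes of Fc receptor signalling were higher, with a median log2 fold change of 5.50 against -0.05 over all genes tested. Fcgrt rose 10.3-fold (3.36 ± 0.11) and Trim21 5.88-fold (2.56 ± 0.15).

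Levels between genes were compared by the deposited TPM, which is scaled per length of the gene span. In control microglia Fcgr3 stood highest at 514 ± 110 TPM (mean ± SD, n = 8), followed by Fcer1g (434 ± 93.8), Fcgr1 (241 ± 52.5), Fcgr2b (192 ± 45.6), Fcgrt (177 ± 22.9), Trim21 (27.9 ± 7.18) and Fcgr4 (16.7 ± 8.01). Fcgr3 exceeded Fcer1g, and Fcer1g exceeded Fcgr1, in 8 of 8 libraries, and Fcgr1 exceeded Fcgr2b in 7 of 8. Fcgr2b exceeded Fcgrt in 4 of 8, so this pair had no settled order over the pooled controls. Their means were 174 and 184 TPM in Het and 209 and 170 TPM after anti-gp120. In forebrain, with the Het and anti-gp120 libraries pooled, Fcgrt stood highest (24.3 ± 3.07 TPM), above Fcgr3 (17.7 ± 8.91) in 7 of 8 libraries. Fcer1g was at 16.7 ± 4.79, Fcgr1 at 8.38 ± 3.74, Trim21 at 6.73 ± 1.13, Fcgr2b at 6.22 ± 2.40 and Fcgr4 at 0.487 ± 0.223. Fcgr3 exceeded Fcer1g in 3 of 8 forebrain libraries and Fcgr1 exceeded Trim21 in 4 of 8, so these pairs had no settled order over the pooled controls either. Their order differed by control arm. Mean TPM in Het was 10.8 for Fcgr3, 12.5 for Fcer1g, 4.97 for Fcgr1, 6.02 for Trim21 and 4.24 for Fcgr2b. After anti-gp120 the means of these genes were 24.5, 20.9, 11.8, 7.44 and 8.20. Counted per kb of merged exons in place of the gene span, 3 of 7 genes kept their rank in each tissue. By that measure Fcgr3 passed Fcgrt and Fcgr2b passed Trim21 in forebrain, and Fcgrt passed Fcgr2b and Fcgr4 passed Trim21 in microglia.

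**Figure D1:**
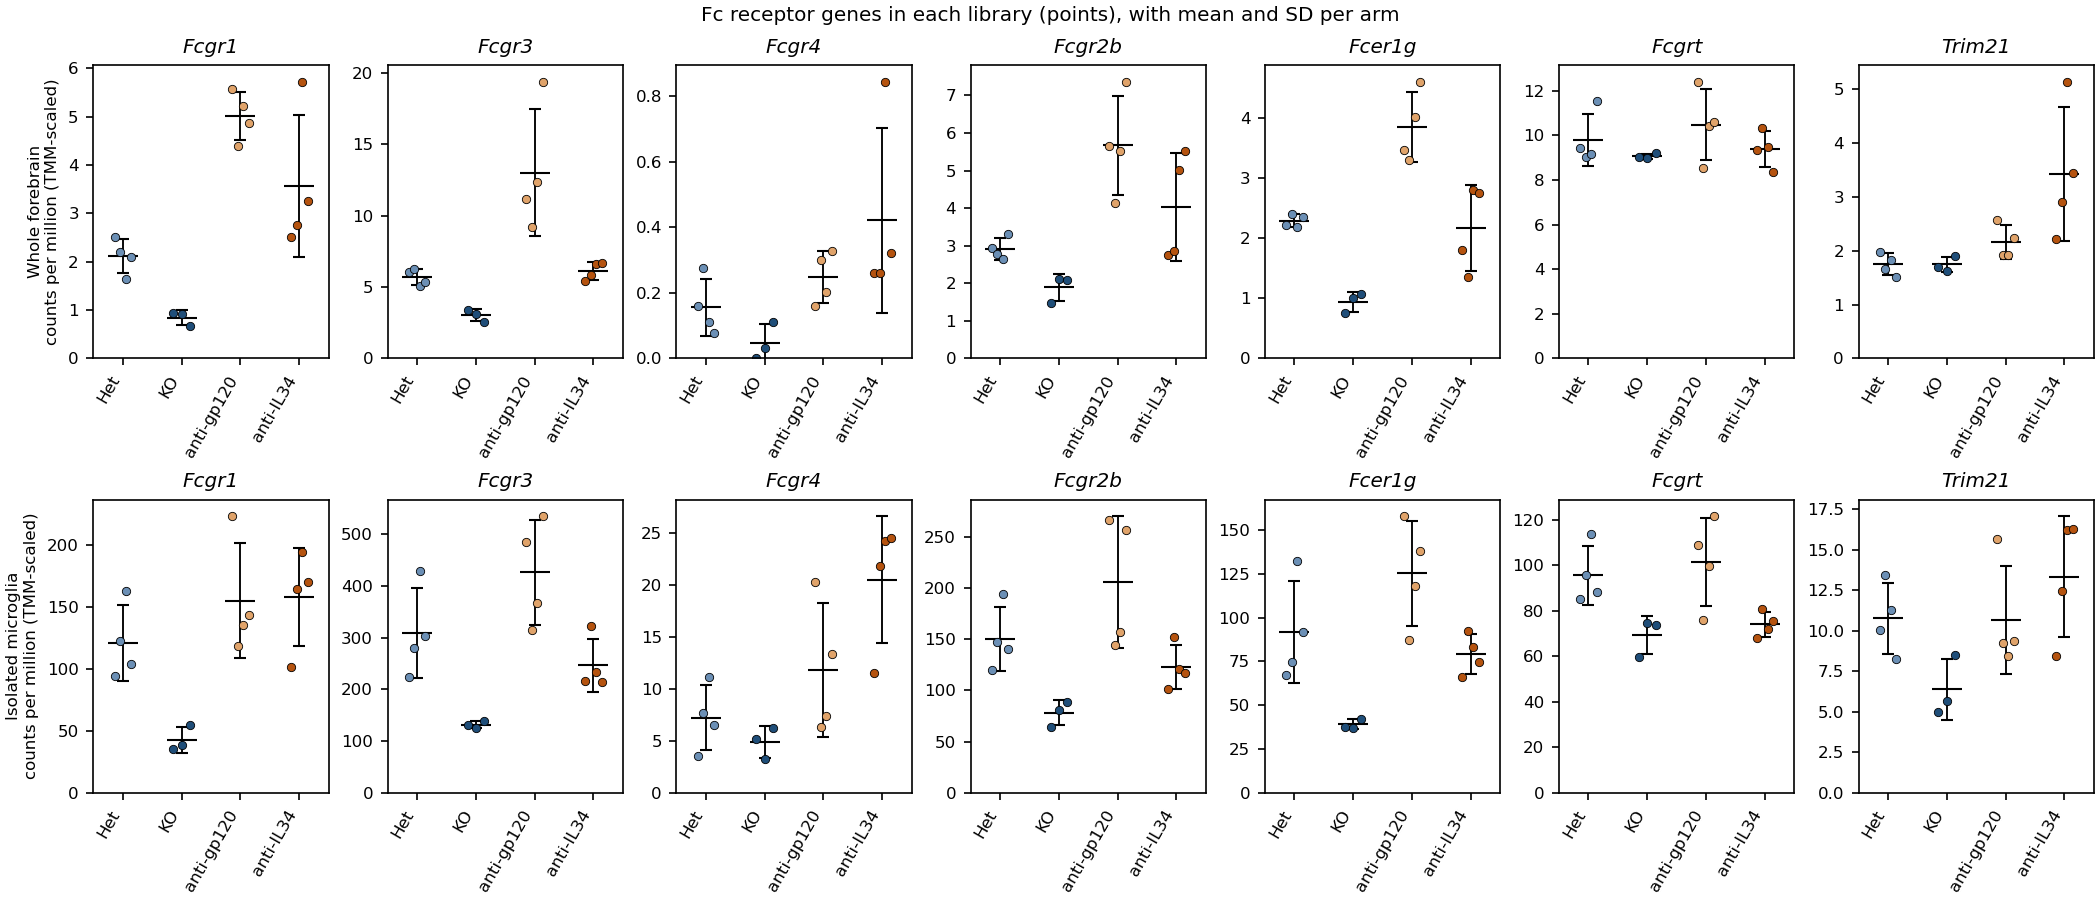
Each point is 1 library (y axis, TMM-scaled CPM; top row whole forebrain, bottom row isolated microglia), with the mean and SD of each arm as bars. In forebrain the 3 KO libraries of Fcgr1, between 0.66 and 0.95 CPM, lie below the 4 Het libraries, whereas in microglia the anti-IL34 libraries of Fcgr1, between 102 and 194 CPM, lie among the anti-gp120 libraries.

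After deletion of Il34 the activating receptor genes Fcgr1 and Fcgr3 and the gamma chain gene Fcer1g were lower in both tissues. In forebrain 3 of the 6 genes tested were lower in KO than in Het (Fcgr1, Fcgr3 and Fcer1g) and none was higher, against 0.615% of all genes tested that were lower. In microglia 4 of 7 were lower (Fcgr1, Fcgr3, Fcgr2b and Fcer1g) and none was higher, against 5.22% of all genes. The 8 microglia markers had median log2 fold changes of -1.33 in KO forebrain and -1.62 in KO microglia, so a fall was not particular to the Fc receptor genes. Fcgr4 was too low for the test in forebrain. KO and Het libraries did not overlap for 4 genes in forebrain and 5 in microglia, all lower in KO. Among all genes tested, 5.24% were lower without overlap in forebrain and 19.4% in microglia. The 4 microglia calls were kept without Het animal 1 or 21 and lost, all 4 together, without Het animal 20 or 23 or without any 1 of the 3 KO animals. Over all 7 fits without 1 animal the log2 fold change ranged from -1.69 to -1.33 for Fcgr1, from -1.31 to -1.04 for Fcgr3, from -1.03 to -0.81 for Fcgr2b and from -1.29 to -1.01 for Fcer1g.

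Fcgr1, the high-affinity IgG receptor, had the largest log2 fold change of the genes tested in each tissue. In forebrain its level was 2.50, 2.20, 1.65 and 2.09 CPM in the Het animals and 0.95, 0.92 and 0.66 CPM in the KO animals, from 20 to 157 counts per library. The arms did not overlap, and the level in KO was 38.7% of that in Het (log2 fold change -1.37 ± 0.22 SE, adjusted p = 0.0108, edgeR). This forebrain call was lost without KO animal 3 (log2 fold change -1.48, adjusted p = 0.075) or KO animal 6 (-1.18, 0.114). In microglia Het animals had 94.0, 123, 163 and 104 CPM and KO animals 35.0, 38.3 and 54.7 CPM. Again every KO animal was below every Het animal, at 35.5% of the Het level (log2 fold change -1.49 ± 0.25, adjusted p = 0.0241).

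Fcgr3, the most abundant Fc gamma receptor transcript, was lower in KO in both tissues as well. Forebrain levels were 6.03, 6.28, 5.11 and 5.38 CPM in Het and 3.41, 3.10 and 2.56 CPM in KO. The KO level was 51.8% of Het without overlap (log2 fold change -0.95 ± 0.13, adjusted p = 0.00439, edgeR), and the call held when any 1 animal was left out. Microglia levels were 223, 280, 430 and 304 CPM in Het and a narrow 132, 125 and 138 CPM in KO, which is 43.1% (log2 fold change -1.21 ± 0.23, adjusted p = 0.0338).

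Fcer1g, whose gamma chain carries the activating signal, was likewise lower in both tissues. In forebrain it stood at 2.22, 2.40, 2.19 and 2.36 CPM in Het and at 0.76, 1.01 and 1.07 CPM in KO. This was 42.4% of the Het level (log2 fold change -1.24 ± 0.18, adjusted p = 0.0045, edgeR), and this call also held without any 1 animal. In microglia it stood at 67.4, 74.5, 132 and 91.8 CPM in Het and at 37.4, 37.2 and 42.2 CPM in KO, which is 43.6% (log2 fold change -1.20 ± 0.24, adjusted p = 0.0375).

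The inhibitory receptor gene Fcgr2b was lower in KO by a smaller factor. Microglia levels were 120, 147, 194 and 140 CPM in Het and 64.5, 80.9 and 88.4 CPM in KO. The arms did not overlap (52.8% of Het, log2 fold change -0.92 ± 0.19, adjusted p = 0.0454, edgeR), but with relative-log-expression scaling the adjusted p was 0.0574. In forebrain the KO values (1.47, 2.12 and 2.08 CPM) also lay below the Het values (2.63 to 3.31 CPM), with a log2 fold change of -0.59 ± 0.17 that did not pass (adjusted p = 0.258). With no count filter it passed (adjusted p = 0.025). Per 100 counts of Fcgr2b, microglia libraries held 186, 190, 221 and 217 counts of Fcgr3 in Het and 204, 154 and 156 in KO.

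Fcgr4, Fcgrt and Trim21 did not pass the test between KO and Het in either tissue. Fcgr4 was rare, with 0, 1 and 6 counts in the forebrain of KO animals and 4 to 15 in Het. The library at 0 counts allows up to 0.141 CPM, a limit of 3 counts that covers counting error only. In microglia it had 3.58, 7.69, 11.1 and 6.55 CPM in Het and 5.17, 3.25 and 6.21 CPM in KO, which overlap (log2 fold change -0.65 ± 0.40, adjusted p = 0.278, edgeR). Fcgrt, the FcRn heavy chain gene, was nearly level in forebrain, at 9.03 to 11.5 CPM in Het and 8.98 to 9.19 in KO (log2 fold change -0.12 ± 0.095). In microglia its KO values (59.7, 74.7 and 73.6 CPM) lay below the Het values (85.0 to 114 CPM), with a log2 fold change of -0.44 ± 0.14 and an adjusted p of 0.11. Trim21, the cytosolic antibody receptor, was at 1.51 to 1.98 CPM in Het forebrain and 1.62 to 1.90 in KO (log2 fold change 0.03 ± 0.17). In microglia it was at 10.0, 13.5, 11.3 and 8.29 CPM in Het and 4.99, 5.66 and 8.52 in KO (log2 fold change -0.77 ± 0.26, adjusted p = 0.116). DESeq2 called that difference (adjusted p = 0.0432).

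Blocking IL-34 by antibody gave fewer calls. The 8 microglia markers had median log2 fold changes of -1.53 in anti-IL34 forebrain and -1.25 in anti-IL34 microglia, so a fall was not particular to the Fc receptor genes here either. In forebrain 1 of the 6 genes tested, Fcgr3, was lower after anti-IL34 than after anti-gp120, and none was higher, against 0.525% of all genes tested that were lower. The arms did not overlap for Fcgr3 and Fcer1g, both lower after anti-IL34, against 2.07% of all genes. In microglia 0 of 7 passed by edgeR in either direction, against 0.626% of all genes. There 4 genes had an unadjusted p below 0.05, as did 25.9% of all genes, DESeq2 called Fcgr3 (adjusted p = 0.0234) among 2020 of all genes, and no gene had arms apart, against 13.1% of all genes that were lower without overlap. Without anti-gp120 animal 15, Fcgr3, Fcgr2b, Fcer1g and Fcgrt were lower in microglia, with adjusted p of 0.00508 to 0.0103, in a fit that called 6905 of all genes.

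Fcgr3 had forebrain levels of 11.1, 9.20, 12.4 and 19.4 CPM after anti-gp120 and 5.41, 5.86, 6.63 and 6.70 CPM after anti-IL34. The highest treated animal was below the lowest control, and the treated level was 48.5% of control (log2 fold change -1.04 ± 0.20, adjusted p = 0.0458, edgeR). The call was kept without anti-gp120 animal 15 or 8. It was lost without any of the other 6 animals, with adjusted p of 0.071 to 0.425. In microglia the values were 486, 315, 368 and 535 CPM after anti-gp120 and 216, 322, 234 and 213 CPM after anti-IL34, so that 3 of 4 treated animals were below all controls (log2 fold change -0.72 ± 0.21, adjusted p = 0.113).

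Fcer1g stood at 3.47, 3.31, 4.01 and 4.60 CPM in anti-gp120 forebrain and at 1.80, 1.35, 2.79 and 2.75 CPM in anti-IL34 forebrain. These do not overlap, but the difference did not pass (log2 fold change -0.90 ± 0.23, adjusted p = 0.197, edgeR). It passed by DESeq2 (0.0303) and in a fit of all 15 forebrain libraries (0.0413). In microglia the log2 fold change was -0.64 ± 0.20 (adjusted p = 0.134), from 87.0 to 158 CPM in controls and 66.0 to 92.4 CPM in treated animals. Fcgr2b had log2 fold changes of -0.57 ± 0.25 in forebrain and -0.69 ± 0.24 in microglia, and its microglia level was 101 to 152 CPM after anti-IL34 against 144 to 267 CPM. Fcgrt had -0.19 ± 0.12 and -0.42 ± 0.16, with 67.8 to 80.8 CPM in treated microglia against 75.7 to 122 CPM in controls. The values of Fcer1g, Fcgr2b and Fcgrt were lower on average in treated microglia but did not pass the test.

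Fcgr1, Fcgr4 and Trim21 had log2 fold changes at or above 0 in treated microglia, that of Fcgr1 turning negative without anti-IL34 animal 2, 11 or 24 or anti-gp120 animal 7 or 15 (lowest -0.18) and with no count filter (-0.012). Microglia levels of Fcgr1 were 224, 119, 135 and 144 CPM after anti-gp120 and 102, 165, 194 and 171 CPM after anti-IL34, with a log2 fold change of 0.02 ± 0.25 (adjusted p = 0.967, edgeR). In forebrain Fcgr1 was at 5.56, 4.39, 5.22 and 4.86 CPM in controls and at 2.52, 2.75, 5.72 and 3.26 CPM in treated animals (log2 fold change -0.62 ± 0.22, adjusted p = 0.695). Animal 2 was the highest of all 8 there, and without it the log2 fold change was -0.87 with an adjusted p of 0.035. With no count filter Fcgr1 (adjusted p = 0.0249), Fcgr2b (0.0496) and Fcer1g (0.000553) passed by edgeR in forebrain as well as Fcgr3.

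Fcgr4 in microglia was at 20.3, 6.35, 7.34 and 13.4 CPM after anti-gp120 and at 11.5, 21.9, 24.2 and 24.5 CPM after anti-IL34. It was above all controls in 3 of 4 treated animals, but the difference did not pass (log2 fold change 0.78 ± 0.41, adjusted p = 0.238, edgeR). Trim21 in microglia was at 15.7, 9.24, 8.45 and 9.39 CPM in controls and at 8.43, 12.5, 16.2 and 16.3 CPM in treated animals (log2 fold change 0.29 ± 0.27). In forebrain Trim21 was at 1.91 to 2.57 CPM in controls and at 2.21, 2.90, 5.13 and 3.44 CPM in treated animals, with a log2 fold change of 0.57 ± 0.25 that did not pass (adjusted p = 0.989).

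Markers of other cells that can carry these receptors were read in the same libraries. The summed level of 9 of 9 listed neutrophil and monocyte markers in microglia libraries was 50.6 to 332 CPM after anti-gp120 and 172 to 475 CPM after anti-IL34. In the genotype experiment it was 39.8 to 57.9 CPM in Het and 43.4 to 88.9 CPM in KO. In microglia all 9 markers were above 0 in each arm, and 0 of those tested were called in either experiment. Border-associated macrophage markers (7 of 7) summed to 755 to 935 CPM in Het, 402 to 834 CPM in KO, 537 to 999 CPM after anti-gp120 and 378 to 534 CPM after anti-IL34. B cell markers, of cells that express Fcgr2b, summed to 133 to 275 CPM in Het, 61.6 to 76.2 in KO, 138 to 261 after anti-gp120 and 103 to 166 after anti-IL34. Of 4 B cell markers tested in KO microglia, 2 were lower, against 5.22% of all genes, and the log2 fold changes of the other 2 were positive and did not pass. NK and T cell markers reached at most 0.92 CPM and mast cell and basophil markers at most 1.37 CPM in microglia libraries. Endothelial markers, of cells that express Fcgrt, summed to 573 to 997 CPM in Het, 677 to 875 in KO, 639 to 1045 after anti-gp120 and 726 to 1139 after anti-IL34. Astrocyte markers in microglia libraries were 961 to 3063 CPM in Het, 3648 to 4039 in KO, 1415 to 4576 after anti-gp120 and 2788 to 4907 after anti-IL34. Oligodendrocyte markers there were 2719 to 9082, 6844 to 16320, 3583 to 8917 and 5396 to 11669 CPM in the same order of arms, and 3 of 4 were lower in KO forebrain (edgeR, adjusted p below 0.05), against 0.615% of all genes. Choroid plexus markers were 110 to 246 CPM in Het, 74.4 to 214 in KO, 3.95 to 4.92 after anti-gp120 and 4.85 to 126 after anti-IL34, with 0 of 4 called in microglia in either experiment. The part of these cells in the Fc receptor values was not tested.

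**Figure D2:**
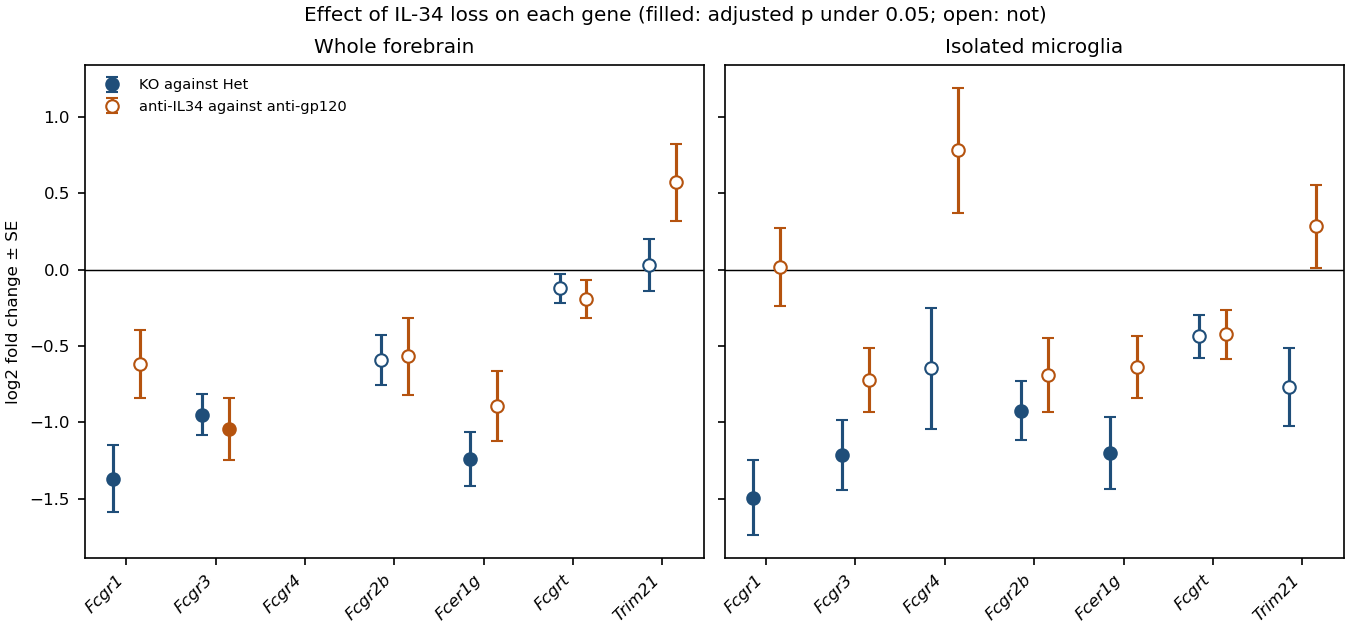
Log2 fold change with its standard error (y axis) for each gene (x axis) in whole forebrain (left) and isolated microglia (right), blue for KO against Het and orange for anti-IL34 against anti-gp120. Fcgr4 was not tested in forebrain; in microglia Fcgr1 lies at -1.49 after deletion and at 0.02 after the antibody.

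Set against each other, the experiments differed most for Fcgr1, Fcgr4 and Trim21, but no difference passed. The test subtracted the antibody effect from the deletion effect within 1 tissue. By edgeR 0 of 7 genes passed in forebrain, against 0.0101% of all genes, and 0 of 7 in microglia, where 0% of all genes passed. An unadjusted p below 0.05 was found for 2 genes in forebrain and 3 in microglia, and for 3.07% and 3.95% of all genes. DESeq2 called none of the 7 in either tissue. In microglia the difference for Fcgr1 was -1.47 ± 0.38 (unadjusted p = 0.00186, adjusted p = 0.654). Every KO animal was below every Het animal, as for 19.4% of all genes tested. The antibody arms overlapped. The highest control (224 CPM) was above all treated animals, and the lowest treated animal (102 CPM) was below all controls. For Trim21 the difference was -1.02 ± 0.40 (unadjusted p = 0.0245, adjusted p = 1.0) and for Fcgr4 -1.36 ± 0.62 (unadjusted p = 0.0486). For Fcgr3, Fcer1g, Fcgr2b and Fcgrt the differences were -0.48 ± 0.32, -0.54 ± 0.32, -0.21 ± 0.33 and 0.01 ± 0.22. In forebrain Fcgr1 differed by -0.76 ± 0.34 and Trim21 by -0.54 ± 0.31, and Fcgr3 by 0.10 ± 0.27. Fcgr4 differed there by -2.21 ± 0.90, on 15 counts or fewer per library, and by -3.69 without KO animal 6 and -1.70 without Het animal 20.

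The controls of the experiments also differed in level. Mean forebrain levels were 2.11 ± 0.35 CPM in Het and 5.01 ± 0.50 CPM after anti-gp120 for Fcgr1, 5.70 ± 0.55 and 13 ± 4.44 CPM for Fcgr3, and 2.29 ± 0.10 and 3.85 ± 0.59 CPM for Fcer1g (mean ± SD, n = 4 each). The Csf1r level was 45.8 ± 2.48 and 86.8 ± 15.0 CPM in the same libraries. Genotype, antibody treatment and experiment cannot be told apart in these levels, so each arm is read only against its own control.

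The effects in the 2 tissues of an experiment were also compared directly. For deletion 0 of 7 genes passed by edgeR, against 2.98% of all genes, and for the antibody 0 of 7, against 0.0924%. These fits had no term for the animal, and with the animal as a block 0 of all genes passed for either effect. An unadjusted p below 0.05 was found for 1 gene and for 0 genes, and for 31.0% and 21.1% of all genes. The counts of all genes rested on single animals. For deletion the count was 599, but 0 without Het animal 20 or 23 or any 1 KO animal, 3243 without Het animal 21 and 5688 without Het animal 1. For the antibody it was 17. Leaving out a control animal gave 0 (animal 1, 7 or 8) or 5565 (animal 15), and leaving out a treated animal gave 0 (animal 10), 2 (animal 24), 6 (animal 2) or 139 (animal 11). DESeq2 called none of the 7 in either case. The gene with an unadjusted p below 0.05 was Trim21, whose deletion effect was lower in microglia than in forebrain by 0.75 ± 0.32 on the log2 scale (unadjusted p = 0.0392, adjusted p = 0.144), with values of -0.77 and 0.03. For Fcgr1 the antibody effect was higher in microglia than in forebrain by 0.62 ± 0.37 (adjusted p = 0.317).

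Within a library the balance among the Fc gamma receptor genes can be read without scaling to depth. These ratios were chosen after the levels had been seen and carry no test, and the share of all genes apart by them was not computed. Fcgr3 itself had log2 fold changes of -0.72 in microglia and -1.04 in forebrain after the antibody, and -1.21 and -0.95 after deletion. A gene of unchanged level therefore also rises per 100 counts of Fcgr3. In microglia there were 42.1, 43.9, 37.9 and 34.2 counts of Fcgr1 per 100 of Fcgr3 in Het and 26.6, 30.7 and 39.6 in KO. There were 46.0, 37.6, 36.7 and 26.8 after anti-gp120 and 47.1, 51.2, 83.1 and 80.0 after anti-IL34. Every anti-IL34 library was above every anti-gp120 library, though by level Fcgr1 overlapped between these arms (log2 fold change 0.02). The genotype arms overlapped in this ratio. For Fcgr4 per 100 of Fcgr3 the values were 1.6, 2.75, 2.59 and 2.16 in Het and 3.93, 2.61 and 4.50 in KO. After anti-gp120 they were 4.18, 2.01, 1.99 and 2.50, and after anti-IL34 5.33, 6.79, 10.3 and 11.5. The treated libraries again lay above all controls, though by level Fcgr4 overlapped between these arms and did not pass. In forebrain the Fcgr1 ratio was 32.3 to 41.5 in Het and 25.9 to 29.7 in KO, without overlap, whereas it was 25.1 to 49.9 after anti-gp120 and 46.5 to 86.3 after anti-IL34. Fcer1g per 100 of Fcgr3 varied little in microglia, from 25.8 to 35.6 over all 15 libraries. Trim21 per 100 of Fcgrt in microglia was 9.41 to 14.1 in Het, 7.57 to 11.6 in KO, 7.72 to 14.4 after anti-gp120 and 12.4 to 22.6 after anti-IL34.

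**Figure D3:**
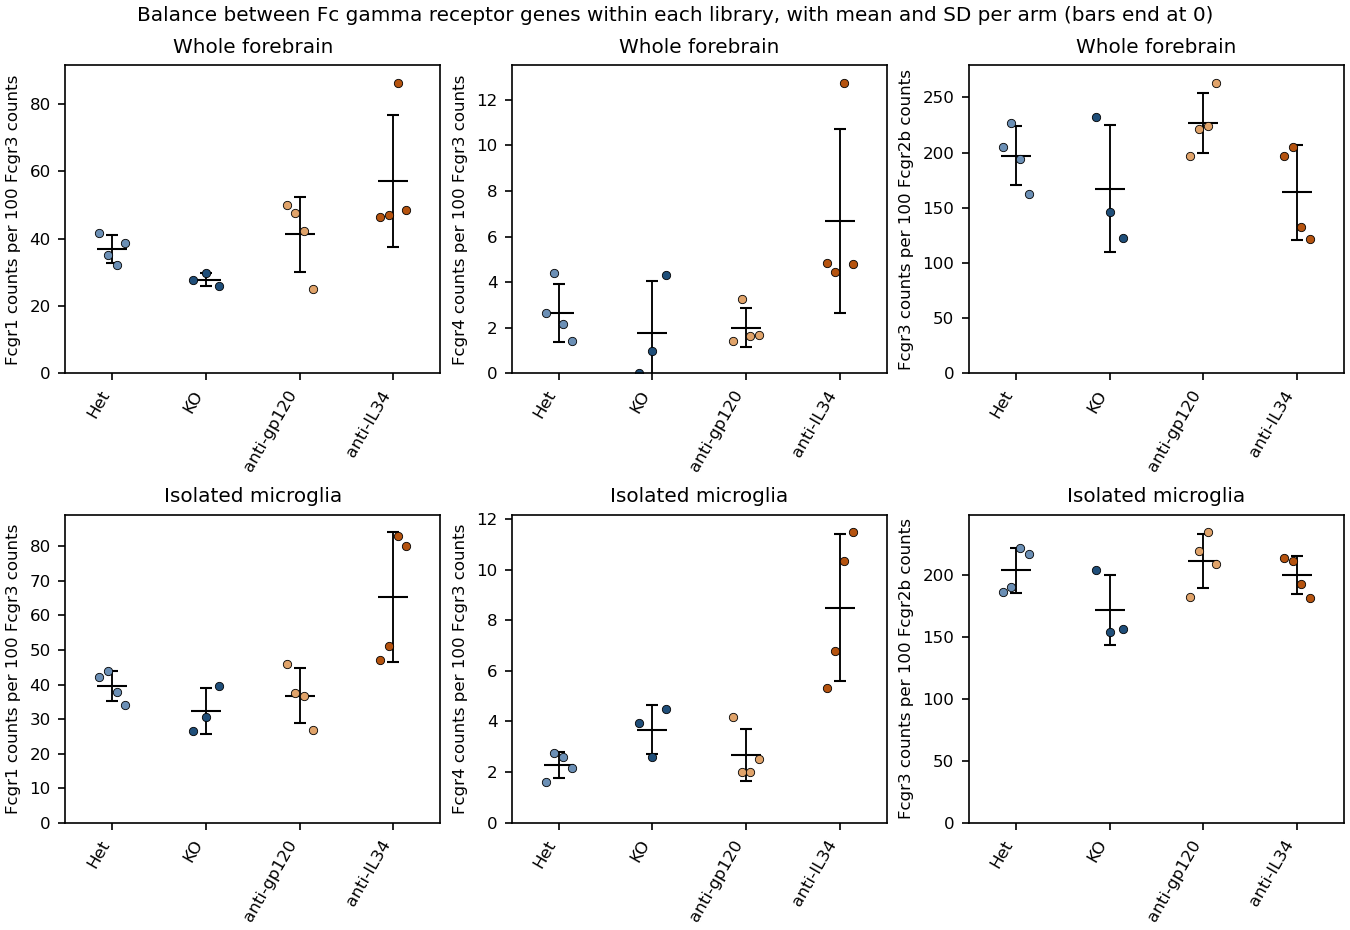
Counts of one receptor gene per 100 counts of another within each library (y axis; points are libraries, bars the mean and SD, ended at 0) by arm, in whole forebrain (top) and isolated microglia (bottom). In microglia the 4 anti-IL34 libraries lie above the anti-gp120 libraries for Fcgr1 and Fcgr4 per 100 Fcgr3, and Fcgr3 per 100 Fcgr2b overlaps between arms. Fcgr3 itself was lower on average after anti-IL34 there, and the levels of Fcgr1 and Fcgr4 overlap between these arms.

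Because whole forebrain mixes cell types, each gene was also read relative to 10 general myeloid genes of the same library (among them Cx3cr1, Aif1, Itgam, Ptprc, Laptm5, Ctss, Spi1, Cd53 and Csf1r), as the difference of log2 CPM. Relative to this panel Fcgr3, Fcgr2b and Fcer1g differed by 0.10, 0.38 and -0.25 after deletion and by -0.08, 0.42 and 0.08 after the antibody, and the arms overlapped in each case. For Fcgrt and Trim21 the difference was 0.91 and 1.02 after deletion and 0.80 and 1.55 after the antibody. The difference for Fcgr1 was -0.28 after deletion and 0.39 after the antibody, and for Fcgr4 -0.51 and 1.53. The arms did not overlap for Fcgrt and Trim21 in both experiments and for Fcgr1 and Fcgr4 in the antibody experiment. The panel mean itself was 2.62 in Het and 1.6 in KO, and 3.42 after anti-gp120 and 2.47 after anti-IL34 (log2 CPM), so a gene of unchanged level also lies apart by this measure. For each of these the exact two-sided permutation test gave p = 0.0286, the smallest that 4 animals against 3 or against 4 allow. Of 14 such tests, 0 passed 0.05 after Benjamini-Hochberg adjustment over them. No test can pass alone at this smallest p, so a pass depends on how many of the 14 tests reach it. Of all genes tested, 89.4% lay above the panel with the arms apart after deletion and 86.2% after the antibody, so lying apart above the panel is no result about these genes. With a panel of homeostatic microglia genes 3 passed after deletion (Fcgr2b, Fcgrt and Trim21) and 6 after the antibody (all but Fcgr3), where 94.4% and 96.1% of all genes lay apart and above it. That panel also turned the direction for Fcgr1 and Fcer1g after deletion (0.066 and 0.098) and for Fcgr3 after the antibody (0.49). Without Itgam, a choice made after seeing the data, Fcgr3 after the antibody was at 0.027, and Fcgr2b after the antibody was at 0.52 with the arms apart (exact permutation p = 0.0286). In microglia libraries the mean of the myeloid panel was 7.99 in Het, 6.68 in KO, 8.22 after anti-gp120 and 7.52 after anti-IL34 (log2 CPM). The genes were not tested against the panel there.

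Genes that act downstream of Fc receptors were read as a list of 23 kinases, phosphatases, adaptors and oxidase subunits. After deletion 10 of 23 were lower in forebrain and 18 of 23 in microglia, and none was higher, against 0.615% and 5.22% of all genes tested that were lower. The 18 calls in microglia were lost without Het animal 20 or 23 or any 1 KO animal, where 0 of all genes were called. Median log2 fold changes were -0.73 and -1.29, against 0.00 and 0.02 over all genes tested and -1.33 and -1.62 for the 8 microglia markers. After the antibody 5 of 22 tested were lower in forebrain (median -0.71) and 1 of 23 in microglia (median -0.63, against 0.06 over all genes). Of all genes tested, 0.525% were lower in forebrain, and 0.626% were called in either direction in microglia. The microglia markers had medians of -1.53 and -1.25 in these tissues after the antibody. Syk, the kinase recruited by the gamma chain, fell by 0.58 in KO forebrain (adjusted p = 0.0473, edgeR) and by 1.31 in KO microglia (0.0245) on the log2 scale. After anti-IL34 it fell by 0.86 in forebrain (0.0482), and its microglia value was -0.82 (0.0902). Inpp5d, the phosphatase that FcγRIIb recruits, fell by 0.82 and 1.52 after deletion and by 0.90 in forebrain after the antibody. Dock2 and Vav1, guanine nucleotide exchange factors for Rac, fell in KO forebrain by 1.22 and 1.31. Pik3cg, a phosphoinositide 3-kinase subunit, was the 1 gene called after the antibody in microglia (log2 fold change -0.96 ± 0.13, adjusted p = 0.0374).

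Partners of the member proteins were read next, in a list of 13 receptors and chains that pair with Fcer1g or Fcgrt. In KO forebrain 2 of 6 tested were lower, and 2 of 11 in KO microglia, against 0.615% and 5.22% of all genes. None of 4 tested in forebrain and none of 11 in microglia passed after the antibody by edgeR. Tyrobp, the sister adaptor of the gamma chain, fell by 1.40 in KO forebrain and by 1.26 in KO microglia (adjusted p = 0.0329 and 0.0138). B2m, the light chain of FcRn, fell by 0.28 in KO forebrain (adjusted p = 0.0343). In microglia its log2 fold change was -1.06 after deletion (adjusted p = 0.072) and 0.34 after the antibody (0.311), next to -0.44 and -0.42 for Fcgrt. Clec4a2, a C-type lectin receptor, fell by 1.27 in KO microglia (adjusted p = 0.0136). Of 12 other immunoglobulin receptor and Fc receptor-like genes, 11 were in the table and 2 or 3 could be tested in each comparison of arms. In KO forebrain 1 of 3 was lower and in KO microglia 2 of 3, against 0.615% and 5.22% of all genes. After the antibody 1 of 2 was lower in forebrain, against 0.525%, and 1 of 3 was called in microglia, against 0.626%. Fcrla had log2 fold changes of 0.23 and 0.30 after deletion and -0.28 and 0.27 after the antibody, none of which passed. Fcrl2, an Fc receptor-like gene, fell by 1.24 and 1.41 after deletion and by 1.85 and 1.65 after the antibody in forebrain and microglia (adjusted p of 5.52e-05, 0.0323, 2.87e-05 and 0.0223). Fcrl1 fell by 2.03 in KO microglia (adjusted p = 0.0136), and its log2 fold changes in KO forebrain (-1.41) and anti-IL34 microglia (-1.36) did not pass.

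Trim21 belongs to the genes that interferon is known to induce, and a list of 15 Trim21 partners and interferon-induced genes was read beside it. After anti-IL34 8 of 15 were higher in forebrain, against 0.192% of all genes tested that were higher, and the median log2 fold change was 0.86 against 0.00 over all genes. Oasl2, an oligoadenylate synthetase-like gene, rose by 2.95 ± 0.31 (adjusted p = 0.00121, edgeR) and Irf7, an interferon regulatory factor, by 2.17 ± 0.31 (0.00843). Usp18, which damps interferon signalling, rose by 2.26 (0.00893). In anti-IL34 microglia 0 of 15 passed, against 0.626% of all genes called in either direction. The median there was 1.10, against 0.06 over all genes, and 11 of 15 were positive. After deletion 0 of 15 passed in either tissue, where 0.615% (forebrain) and 5.22% (microglia) of all genes were lower. Medians were -0.04 in forebrain and -0.53 in microglia, against -0.0002 and 0.02 over all genes, and 15 of 15 were negative in microglia. Trim21 itself had -0.77 and 0.29 in the microglia of these experiments. In the test of deletion against antibody in microglia, 14 of 15 listed genes were negative (median -1.63, against -0.01 over all genes). None passed, where 0% of all genes passed. The shares of all genes by sign were not computed. The counts of all these lists are descriptions, since the lists were drawn up with earlier results of these data known.

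**Figure D4:**
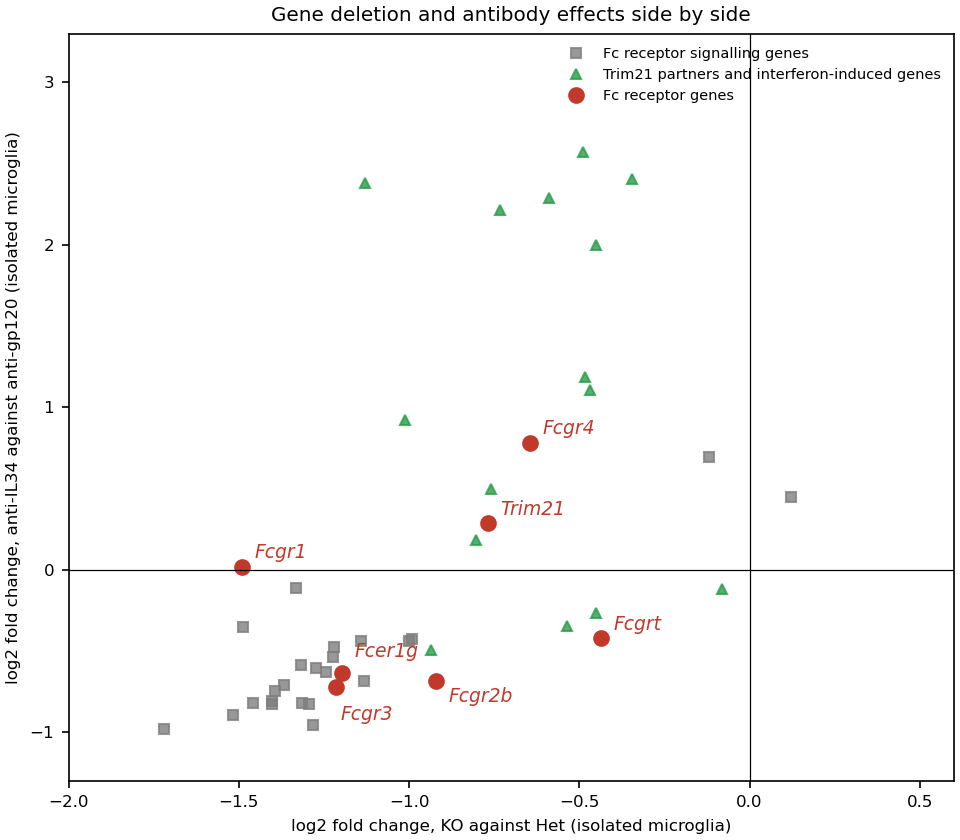
Log2 fold change in isolated microglia after deletion (x axis, KO against Het) and after the antibody (y axis, anti-IL34 against anti-gp120) for the Fc receptor genes, 23 Fc receptor signalling genes and 15 Trim21 partners and interferon-induced genes. Fcgr3, Fcer1g, Fcgr2b and Fcgrt lie below 0 on both axes, and Fcgr1, Fcgr4 and Trim21 lie below 0 on the x axis and at or above it on the y axis.

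Across the 15 microglia libraries the genes most like each member in log2 CPM were sought among 15595 genes, as a description over libraries that share arms and depth. Fcer1g was closest to the complement genes C1qa, C1qb and C1qc (Pearson r of 0.992, 0.990 and 0.990). Genes close to Fcgr3 included Tcn2 (0.990) and Fyb1 (0.985), and Fcgr2b was closest to Pxk (0.978), Rassf4 (0.977) and Dnajc13 (0.972). Fcgr1 was closest to Nectin4 (0.993), Tlr1 (0.988) and Tlr12 (0.982). Fcgr4 was closest to Gvin1 (0.971), Tor3a (0.959) and Samhd1 (0.958), and Trim21 to Gm5431 (0.952), Sp110 (0.951) and Dtx3l (0.942). Fcgrt was closest to St6gal1 (0.973), Vps13c (0.961) and 5830417I10Rik (0.957). Among the members, Fcgr3 was close to Fcer1g (0.980) and Fcgr2b (0.968). Fcgr1 was about as close to Trim21 (0.879) as to Fcer1g (0.876), followed by Fcgr3 (0.807), Fcgr2b (0.804) and Fcgr4 (0.788). The value between Fcgr4 and Fcgr3 was 0.476.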

How the data were processed

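The authors deposited read counts per gene, whole numbers that are not normalised, and a TPM table that equals the count divided by the deposited Length and scaled (491002 values compared, largest relative deviation 5.63e-07). That deposited Length equalled the gene span with introns for 51183 of 51498 genes matched to GENCODE M21. Per the submitters' processing notes, STAR 2.7.5c, featureCounts 1.6.3, R 4.4.0 and GRCm38 were used. Strand use and the treatment of ambiguous reads are not given in the sources used here. Per the labels' protocols, RNA was extracted with TRIzol and made into libraries with a SMART-Seq v4 low-input kit. The deposited sample sheet matched the labels for 30 of 30 libraries. Columns that matched no labelled sample (6 of counts and 6 of TPM) were not used, and 8 genes had no symbol.

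Counts were tested in R 4.3.3 with edgeR 4.0.16 (quasi-likelihood F test, TMM, filterByExpr on the group, sex as a covariate, Benjamini-Hochberg over all genes tested, threshold 0.05), by tissue and experiment. Standard errors were derived from the log2 fold change and F. The contrast of experiments used the 15 libraries of a tissue. The tissue contrast in controls had experiment and sex as terms, and the contrasts of effects between tissues had sex and sex by tissue. DESeq2 1.42.0, RLE scaling, no filter, no sex term, a shared fit and leaving out each animal were alternatives. Fits were tested on simulated data. Log2 CPM for the panel and the likeness of genes used a prior count of 1, and likeness a mean of at least 1 CPM.

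Libraries of the same animal share its number. The deviations of an animal's 2 libraries from their group means were correlated above 0.1 in 15 of 15 animals (median 0.252, range 0.113 to 0.444), so a fit with the animal as block was made for tissue contrasts. Animals are the replicates, and within 1 tissue the p-values measure the spread between these animals. In the main fits of the tissue contrasts the 2 libraries of an animal entered as separate samples, so those p-values leave out the pairing. The members and gene lists were chosen with earlier results of these data known. From each list the genes with the smallest p (at most 4 per direction) were named, with B2m, Tyrobp and Syk, and all members; Il34, Csf1r and P2ry12 were reference genes. The count ratios and promoter letters were chosen after values were seen. Some genes that this rule or the panel holds are not reported here. Counting precision is set by 15064391 to 75158213 counts per library. Shares of all genes with an unadjusted p below 0.05, or with arms apart above a panel, were added after seeing the data.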

Additional observations from a re-analysis of the deposited data

Results flagged for a closer look

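Of 42 groups of 4 libraries in which the extreme sample was compared with the others by Dixon's ratio, 3 held a sample far from the rest, where chance gives about 1 in 20. Fcgr4 in anti-IL34 forebrain was highest in animal 2, at 0.845 CPM on 13 counts, against 0.259 to 0.321 CPM in the other 3 animals. Fcgrt in Het forebrain was highest in animal 23, at 11.5 CPM, against 9.03 to 9.42 CPM. Trim21 in anti-gp120 microglia was highest in animal 1, at 15.7 CPM, against 8.45 to 9.39 CPM.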

How the results depend on the processing

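Of 857 values of single genes under an alternative, 777 kept their direction and their side of the threshold, 29 lost a call, 14 gained one and 37 reversed. Causes were not tested. For anti-IL34 against anti-gp120, the number of the 7 genes called in forebrain was 1, and 4 with no count filter (with Fcgr1, Fcgr2b and Fcer1g), 2 with DESeq2 and 2 in the fit of all 15 libraries. In microglia it was 0, and 1 with DESeq2 (Fcgr3). With the homeostatic panel 3 genes (KO) and 6 genes (antibody) passed, where the myeloid panel gave 0, at p-values adjusted over these genes only. With either panel a pass depends on how many tests reach the smallest possible p. There Fcgr1 (0.066) and Fcer1g (0.098) reversed after deletion and Fcgr3 (0.49) after the antibody, and without Itgam, an alternative chosen after seeing the data, Fcgr3 was at 0.027. With no filter Fcgr1 after the antibody in microglia was at -0.012, and with no sex terms the difference of experiments for Fcgrt in microglia was at -0.0071. Per kb of merged exons 3 of 7 genes kept their rank in forebrain and 3 in microglia.

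Leaving out 1 animal at a time gave 2 to 3 genes called for KO forebrain, 0 to 5 for KO microglia, 0 to 1 for antibody forebrain and 0 to 4 for antibody microglia. Values that reversed ranged as follows on the log2 scale. Trim21 in KO forebrain ranged from -0.079 to 0.20 and Fcgr1 in antibody microglia from -0.18 to 0.29. For deletion minus antibody in forebrain, Fcgr3 ranged from -0.077 to 0.24, Fcgr2b from -0.21 to 0.14 and Fcgrt from -0.044 to 0.20, and in microglia Fcgrt from -0.12 to 0.11. For microglia minus forebrain, Fcgr1 ranged from -0.51 to 0.19 and Fcer1g from -0.066 to 0.28 after deletion. After the antibody, Fcgr4 ranged from -0.66 to 0.76, Fcgr2b from -0.50 to 0.21 and Fcer1g from -0.21 to 0.58. Off the myeloid panel, Fcgr4 after deletion ranged from -1.11 to 0.073, and after the antibody Fcgr3 ranged from -0.16 to 0.076 and Fcer1g from -0.0061 to 0.21.

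The number of all genes called in either direction moved by more than 1.5 times in these cases. KO forebrain had 120, and 381 with no filter. KO microglia had 976, and 1993 with no filter, 3807 with DESeq2, 2189 with no sex terms and 2734 in the fit of all 15 libraries. Antibody forebrain had 123, and 349, 198 and 204 with no filter, DESeq2 and all 15 libraries. Antibody microglia had 110, and 819, 2020, 983 and 988 with no filter, DESeq2, no sex terms and all 15 libraries. Deletion minus antibody had 2 in forebrain (114 with no filter, 27 with DESeq2, 4 with no sex terms) and 0 in microglia (1 with no filter, 27 with DESeq2). The tissue difference of the deletion effect had 599 (1569, 3595 and 2400 with no filter, DESeq2 and no sex terms), and that of the antibody effect had 17 (1352, 1092 and 222, and 48 with RLE scaling). Without 1 animal the counts were 55 to 117, 0 to 5756, 25 to 126 and 0 to 6905 in the 4 comparisons of arms, 2 to 33 and 0 to 5 for deletion minus antibody in forebrain and microglia, and 0 to 5688 and 0 to 5565 for the tissue differences of the deletion and antibody effects, so the counts in microglia arms and for the tissue differences rest on single animals.

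With the replicate block on the animal, the 2 libraries of each animal being paired, all 7 genes stayed higher in microglia, with log2 fold changes of 5.44 (Fcgr1), 5.47 (Fcgr3), 5.64 (Fcgr4), 5.50 (Fcgr2b), 5.22 (Fcer1g), 3.36 (Fcgrt) and 2.53 (Trim21) and 16529 of all genes called. For the tissue differences of the deletion and antibody effects the block gave 0 of the 7 genes and 0 of all genes. No paired analysis was possible between arms because different animals make them up.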
